A study of Mus musculus with 8 samples.

Results

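The 53 genes described here encode structural proteins of the cardiac sarcomere, its Z-disc and its anchorage to the membrane, together with proteins that build and remove myofibrils. They were taken by symbol from a list drawn up by role, with earlier results of these data known. All 53 were found among the 53465 genes of the count table, and 51 of them were among the 15580 genes with enough counts to be tested. Poly(A) RNA was sequenced from mouse heart ventricles at embryonic day 15.5 (E15.5), in 4 *Nrg1GOF* libraries and 4 wild-type (WT) libraries, with 1 ventricle sample per replicate. *Nrg1GOF* hearts overexpress neuregulin-1, a ligand of ErbB receptors, from the Rosa26 locus after recombination by a cardiac Cre driver. The genotype label reads Rosa26Nrg-1;Nkx5.5-Cre, whereas the series title gives the driver as Nkx2.5-Cre, which is active in the *Nkx2.5* lineage and not in every cell of the ventricle. The WT label names no allele, and whether WT embryos carried Cre is not given. The comparison asks how these genes differ between ventricles with raised *Nrg1* and WT ventricles.

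The sarcomere is the contractile unit of striated muscle. Thin filaments of actin, tropomyosin and troponin slide along thick filaments of myosin, titin spans from the Z-disc to the M-band, and calcium binding to troponin C releases the block on actin. Troponin I and troponin T each exist as cardiac, slow skeletal and fast skeletal forms, and the fetal heart uses slow troponin I before the cardiac form replaces it. The Z-disc anchors thin filaments through alpha-actinin, and dedicated chaperones and ubiquitin ligases assemble and turn over the myofibril.

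Total counts were 21970987, 20578081, 22547833 and 8038641 in *Nrg1GOF* libraries 1 to 4, and between 18754259 and 26786039 in WT, so that 3 counts corresponded to between 0.112 and 0.373 counts-per-million (CPM, on library sizes scaled by trimmed mean of M-values). *Nrg1* stood at 59.7 to 63.7 CPM in *Nrg1GOF* and 3.07 to 4.47 CPM in WT (log2 fold change 3.94, SE 0.10, adjusted p = 8.26e-08), in accordance with the labels. The WT libraries fell into 2 pairs: the correlation of log2 CPM was 0.989 between libraries 1 and 2 and 0.991 between libraries 3 and 4, against 0.98 for every other WT pair. No label explains this, so counts of calls are also given against each pair alone. Of the heart muscle markers, *Myh7*, the slow myosin heavy chain of the ventricle, was abundant in both groups but fell (12616 against 17606 CPM, log2 fold change -0.48, adjusted p = 0.000867), and *Myl2* averaged 3802 against 4481 CPM (adjusted p = 0.0815). *Myh6*, the fast cardiac myosin heavy chain, averaged 4032 against 2830.01 CPM (log2 fold change 0.51, adjusted p = 0.105), with WT libraries 1 and 2 at 3718 and 3639 CPM and WT libraries 3 and 4 at 2003 and 1959.8 CPM. Of 16 skeletal muscle markers *Myod1* and *Pax7* were at 0 counts in all 8 libraries, whereas *Myog* was detected in each at 0.299 to 0.905 CPM.

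Promoter sequences are shown first for 6 genes, because they include members that rose, fell or were not called and hold matches to motifs known from muscle genes. Each is the 250 bases before the RefSeq start on GRCm38.p6, written 5′ to 3′ on the strand of the gene, with motif matches in capitals. *Xirp2* (chr2:67445752-67446001, plus strand) and *Mybpc3* (chr2:91117894-91118143, plus strand) hold a MEF2 match starting 74 and 90 bases before the start. *Fhl2* (chr1:43196762-43197011, minus strand) holds a CArG match 96 bases and a MEF2 match 31 bases before it. *Actc1* (chr2:114052876-114053125, minus strand) holds a CArG match 47 bases before its start. *Trim54* (chr5:31116362-31116611, plus strand) holds MCAT matches at 163 and 75 bases, and *Trim63* (chr4:134314870-134315119, plus strand) holds 1 at 80 bases.
Xirp2: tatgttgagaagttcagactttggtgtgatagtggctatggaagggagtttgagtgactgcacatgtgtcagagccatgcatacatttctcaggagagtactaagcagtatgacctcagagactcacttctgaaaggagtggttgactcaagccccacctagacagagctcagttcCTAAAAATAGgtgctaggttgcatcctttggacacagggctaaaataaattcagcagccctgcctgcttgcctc
Mybpc3: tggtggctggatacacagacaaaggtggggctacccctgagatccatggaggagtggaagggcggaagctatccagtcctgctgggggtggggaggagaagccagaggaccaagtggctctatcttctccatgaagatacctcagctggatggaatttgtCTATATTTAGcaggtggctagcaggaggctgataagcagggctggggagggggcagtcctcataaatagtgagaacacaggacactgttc
Fhl2: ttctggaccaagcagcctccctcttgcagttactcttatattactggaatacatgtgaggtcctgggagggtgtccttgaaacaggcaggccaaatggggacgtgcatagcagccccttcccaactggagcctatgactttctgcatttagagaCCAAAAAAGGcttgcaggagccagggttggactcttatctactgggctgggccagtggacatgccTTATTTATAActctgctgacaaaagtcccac
Actc1: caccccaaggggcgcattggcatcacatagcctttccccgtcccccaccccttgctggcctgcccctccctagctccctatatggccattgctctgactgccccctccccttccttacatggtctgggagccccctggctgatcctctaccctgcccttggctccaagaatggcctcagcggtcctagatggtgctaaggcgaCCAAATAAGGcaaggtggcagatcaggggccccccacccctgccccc
Trim54: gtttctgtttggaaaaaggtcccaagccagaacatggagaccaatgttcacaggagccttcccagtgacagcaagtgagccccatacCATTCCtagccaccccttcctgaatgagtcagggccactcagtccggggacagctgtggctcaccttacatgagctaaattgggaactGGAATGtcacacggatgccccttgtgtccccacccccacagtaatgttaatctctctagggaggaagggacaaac
Trim63: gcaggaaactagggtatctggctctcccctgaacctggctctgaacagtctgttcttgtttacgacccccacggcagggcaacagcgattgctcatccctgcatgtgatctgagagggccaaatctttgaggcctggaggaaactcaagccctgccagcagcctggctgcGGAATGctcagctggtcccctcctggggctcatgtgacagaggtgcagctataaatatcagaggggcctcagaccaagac

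MEF2 and CArG (the serum response factor element) were searched by their usual consensus and MCAT as CATTCC, on both strands of a window from 250 bases before to 50 bases after each RefSeq start. Such windows were matched for 41 of the 53 members, of which 5 rose, 16 fell and 20 were not called. A MEF2 match lay in a window of 7 members (17.1%), against 3.7% of 27025 genes. CArG was found in 7 members (17.1%), against 1.81% of genes. MCAT was found in 13 members (31.7%), against 16.6% of genes. The MEF2 genes comprised 1 that rose (*Xirp2*), 3 that fell (*Mybpc3*, *Synpo2l*, *Fhl2*) and 3 not called, and CArG genes likewise 1, 3 and 3. Among MCAT genes 2 rose (*Pdlim3*, *Trim54*), 4 fell (*Tnnt2*, *Tnnc1*, *Tmod1*, *Trim63*) and 7 were not called. A match is a description of letters in the window and not a bound site.

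Most of the sarcomere genes that changed were lower in *Nrg1GOF*. Of the 51 tested members, 25 were called (49.0%, against 28.7% of all tested genes) by the quasi-likelihood test of edgeR at an adjusted p under 0.05. The 20 that fell made up 39.2% of the members, against 12.8% of all genes, and the 5 that rose (*Xirp2*, *Trim54*, *Pdlim3*, *Pdlim7* and *Fhl1*) made up 9.8%, against 15.9%. The libraries of the 2 genotypes did not overlap for 25 members (49.0%, against 30.7% of all genes), and 23 of these were called. The median log2 fold change of the members was -0.10, against -0.01 for all tested genes. Of the 25 called, 6 members passed a log2 change of 1, namely *Tnni2*, *Myh7b*, *Tnnt1*, *Pdlim3*, *Trim54* and *Xirp2*, against 4.65% of all genes. Against WT libraries 1 and 2 alone 22 members were called (5 higher, 17 lower), where 18.6% of all genes were called (10.5% higher, 8.13% lower). Against WT libraries 3 and 4 alone 24 were called (6 higher, 18 lower), where 27.7% of all genes were called (16% higher, 11.6% lower). With WT libraries summed by pair, 18 were called (4 higher, 14 lower), where 15.3% of all genes were called (9.59% higher, 5.67% lower).

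**Figure D1:**
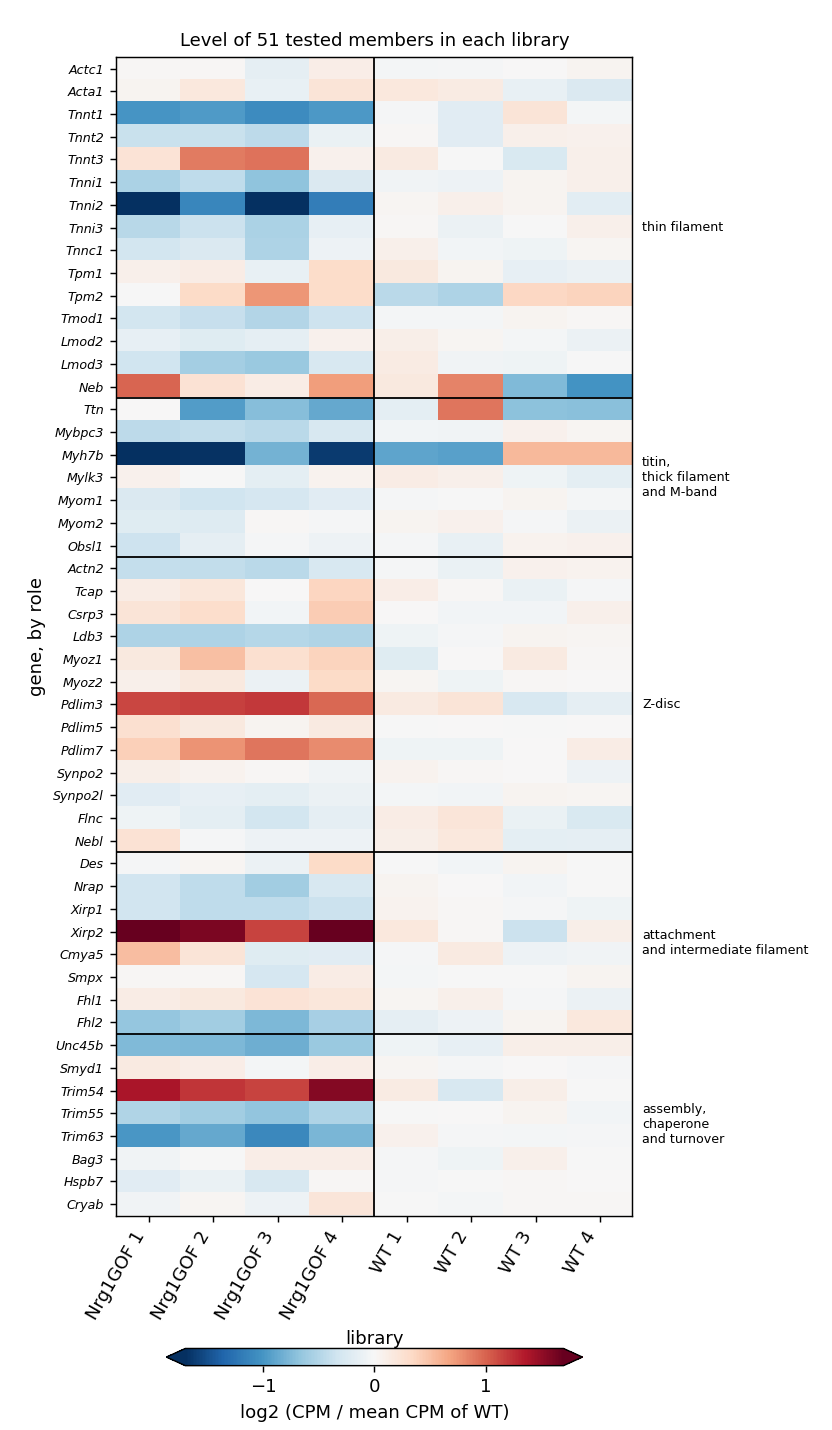
Each row is a tested member, grouped by role, and each column a library. Colour gives log2 of CPM over the mean CPM of WT (blue lower, red higher, saturated past the ends of the scale), and the uniform blue of *Tnnt1*, *Ldb3*, *Unc45b* and *Trim63* and red of *Xirp2*, *Pdlim3* and *Trim54* run through all 4 *Nrg1GOF* libraries.

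The calls are also given by mean level over all 8 libraries. Of 38 members at or above 100 CPM, 17 fell and 2 rose (*Pdlim3* and *Fhl1*), where 23.8% of all genes at that level fell and 16.9% rose. Of the 13 tested members below 100 CPM, 3 fell (*Tnnt1*, *Tnni2* and *Lmod3*) and 3 rose (*Pdlim7*, *Xirp2* and *Trim54*), where 11% of all genes at that level fell and 15.7% rose. The summed level of the 53 members was 34646 to 40859 CPM in *Nrg1GOF* and 42453 to 44213 CPM in WT, without overlap. This sum holds *Ttn*, which was not called and stood at 5295 CPM in WT library 2 and 1539 CPM in *Nrg1GOF* library 4. By role, the sums of the thin filament members overlapped (18610 to 23153 against 21709 to 23259 CPM). Those of the attachment members also overlapped (1996 to 2427 against 2407 to 2444 CPM), and those of the other role groups did not.

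Markers of other cell types moved with these results. They were called by edgeR at an adjusted p under 0.05, where 15.9% of all genes rose and 12.8% fell. Of 8 epicardial and fibroblast markers 7 rose and 1 fell, with a summed level of 5641 to 7327 CPM in *Nrg1GOF* and 3181 to 4270 CPM in WT. All 6 macrophage markers rose (92.5 to 110.2 against 46.5 to 50.3 CPM), as did 5 of 8 endothelial and endocardial markers (1289 to 1413 against 1163 to 1193 CPM) and 5 of 8 atrial markers (1671 to 1836 against 1030.2 to 1169 CPM). The atrial sum was led by *Myl4* (1312 against 862 CPM). Of 7 smooth muscle markers 3 rose (*Cnn1*, *Tagln*, *Pdgfrb*) and 2 fell (*Acta2*, *Rgs5*), with a summed level led by *Acta2* of 1180.4 to 1296 against 1441 to 1624 CPM, and none of 6 red blood cell markers was called (4554 to 7614 against 3857 to 10979 CPM). Of 8 cardiomyocyte markers 1 rose (*Nppa*) and 4 fell (27392 to 34001 against 33824 to 35598 CPM). Their part in the changes of the sarcomere genes was not tested, and in RNA from whole ventricles fewer cells of a type and less RNA per cell cannot be told apart.

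Of the 15 thin filament members 8 fell, none rose and 7 were not called by edgeR at an adjusted p under 0.05 (53.3% called, where 12.8% of all genes fell and 15.9% rose), and 9 of the 15 were below WT. The 8 comprised 5 troponin subunits (*Tnni1*, *Tnni2*, *Tnni3*, *Tnnt1* and *Tnnt2*), troponin C (*Tnnc1*), and the filament regulators *Tmod1* and *Lmod3*. The actins, tropomyosins, *Lmod2*, *Neb* and *Tnnt3* made up the rest.

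*Tnnt1*, the slow skeletal troponin T (ENSMUSG00000064179, chr7:4504570-4516382), stood at 62.9, 64.7, 60.4 and 64.1 CPM in *Nrg1GOF* libraries 1 to 4 and at 125, 111, 147 and 124 CPM in WT libraries 1 to 4. Every *Nrg1GOF* library was below every WT library, with a mean of 63.0 ± 1.91 against 127 ± 15.1 CPM (SD, n = 4 each). The log2 fold change was -1.01 (SE 0.08, adjusted p = 3.94e-05).

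*Tnnt2*, the cardiac troponin T (ENSMUSG00000026414, chr1:135836354-135852260), was lower by a smaller amount. It stood at 4046, 4031, 3853 and 4834 CPM in *Nrg1GOF* and 5314, 4607, 5557 and 5517 CPM in WT. The groups overlapped, since *Nrg1GOF* library 4 lay above WT library 2, and the log2 fold change was -0.32 (SE 0.09, adjusted p = 0.0197). The call was lost in 6 of 18 alternatives, among them the comparison with WT libraries 1 and 2 alone and the fits without *Nrg1GOF* library 1 or 2 or WT library 3 or 4, with an adjusted p of up to 0.144.

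*Tnni1*, the slow skeletal troponin I that the fetal heart expresses (ENSMUSG00000026418, chr1:135779434-135810989), fell by 0.46 on the log2 scale (SE 0.09, adjusted p = 0.00394). Its levels were 1070.4, 1146, 969 and 1312 CPM in *Nrg1GOF* and 1493, 1464, 1602 and 1643 CPM in WT, without overlap. *Tnni3*, the cardiac troponin I (ENSMUSG00000035458, chr7:4518305-4524229), stood at 605, 651, 577 and 761 CPM against 846, 780.2, 835 and 892 CPM. It also fell without overlap, by 0.37 (SE 0.09, adjusted p = 0.0102), but it was no longer called against WT libraries 1 and 2 alone or with WT summed by pair (highest adjusted p = 0.0688). Per kilobase of principal transcript, the WT level of *Tnni1* (1348 ± 74.6 CPM per kb) exceeded that of *Tnni3* (919 ± 50.5 CPM per kb), and both lay far below *Tnnt2* (4374 ± 367 CPM per kb) and *Actc1* (7056 ± 174 CPM per kb).

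*Tnnc1*, the troponin C of heart and slow muscle, averaged 919 ± 115 CPM in *Nrg1GOF* and 1117 ± 56.3 CPM in WT, and its call (log2 fold change -0.28, SE 0.09, adjusted p = 0.0367) was lost in 9 of 18 alternatives, including the fits without *Nrg1GOF* library 1 or 2 or any 1 of the 4 WT libraries, with an adjusted p of up to 0.148. The fast skeletal troponin I, *Tnni2* (ENSMUSG00000031097, chr7:142441808-142444410), had a low level and was among the members that fell furthest, with *Myh7b*. It stood at 1.86, 3.0002, 1.67 and 2.88 CPM in *Nrg1GOF* and 6.65, 6.87, 6.71 and 5.74 CPM in WT, from 23 to 174 counts per library. No *Nrg1GOF* library reached a WT library, and the log2 fold change was -1.50 (SE 0.20, adjusted p = 0.000605).

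*Tnnt3*, the fast skeletal troponin T, was the exception among the troponins. It held 1.54, 2.43, 2.48 and 1.38 CPM in *Nrg1GOF* and 1.45, 1.31, 1.09 and 1.39 CPM in WT, from 11 to 58 counts. Libraries 2 and 3 of *Nrg1GOF* were high and the others lay within or next to the WT range, and its difference of 0.60 on the log2 scale (SE 0.25, adjusted p = 0.0976) did not pass the test. The troponin I and T genes lie in pairs: *Tnni3* and *Tnnt1* are 1922 bases apart on chromosome 7, *Tnni1* and *Tnnt2* 25364 bases apart on chromosome 1, and *Tnni2* and *Tnnt3* 54425 bases apart on chromosome 7. In the first 2 pairs both genes fell, and in the third *Tnni2* alone was called.

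**Figure D2:**
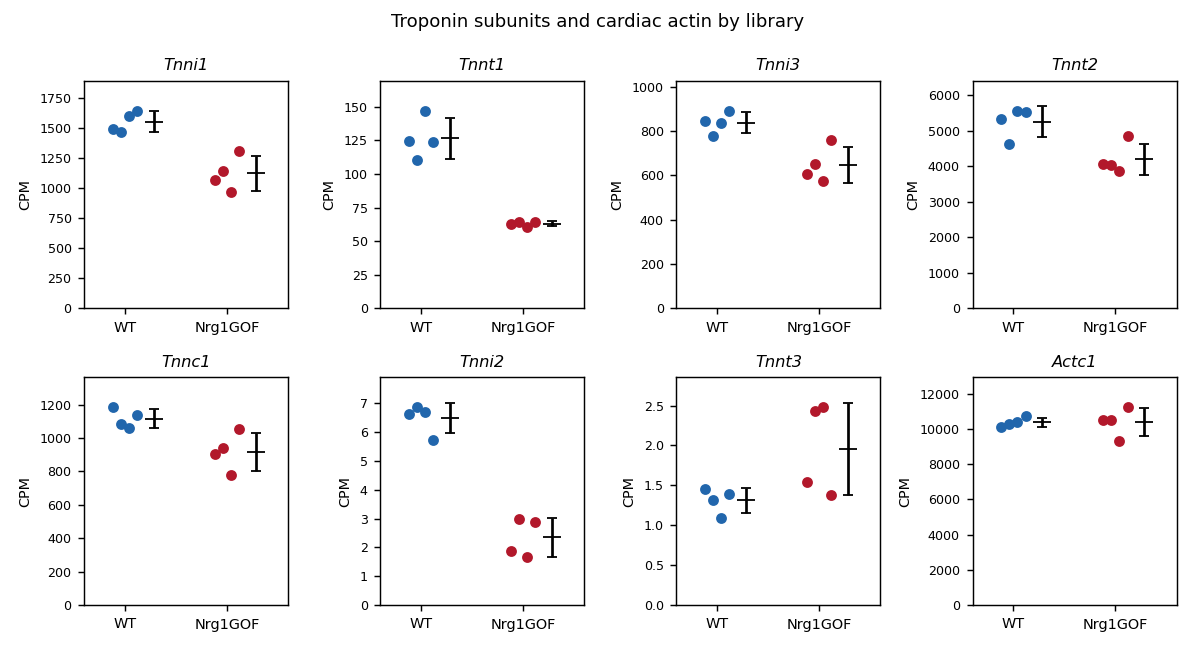
Levels in CPM on a linear axis from 0 of 7 troponin genes and of *Actc1*, with 1 point per library (WT blue, *Nrg1GOF* red) and the bar giving mean ± SD of 4 libraries. *Tnni1*, *Tnnt1*, *Tnni3*, *Tnnc1* and *Tnni2* are separated between groups, *Tnnt2* overlaps by 1 library, and *Actc1* averaged 10402 CPM in *Nrg1GOF* against 10393 in WT.

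Ratios of slow or skeletal to cardiac forms within each library do not depend on how libraries are scaled. They were compared by a two-sided exact permutation test over the 70 assignments of 4 and 4 libraries, whose smallest p is 0.0286, with adjustment over 6 ratios. The *Tnnt1* to *Tnnt2* count ratio was 0.0156, 0.0161, 0.0157 and 0.0133 in *Nrg1GOF* and 0.0234, 0.0240, 0.0265 and 0.0225 in WT. It was lower in each *Nrg1GOF* library than in any WT library, by 0.67 on the log2 scale (SE 0.08, exact p = 0.0286, adjusted p = 0.0571).

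The *Tnni1* to *Tnni3* ratio was 1.77, 1.76, 1.68 and 1.72 in *Nrg1GOF* and 1.76, 1.88, 1.92 and 1.84 in WT (log2 difference -0.09, SE 0.03, exact p = 0.0571, adjusted p = 0.0857). The ranges of the 2 genotypes overlapped for this ratio. The *Tnni2* to *Tnni3* ratio was 0.00293 to 0.00465 in *Nrg1GOF* and 0.00645 to 0.00885 in WT (log2 difference -1.12, SE 0.18), and the *Tnnt3* to *Tnnt2* ratio was 0.000297 to 0.000649 against 0.0002 to 0.00029 (0.87, SE 0.29). Neither pair of ranges overlapped, and each of these 2 ratios had an exact p of 0.0286 and an adjusted p of 0.0571. None of the 6 ratios passed the threshold after adjustment. Adjustment here lifted even the smallest p that the exact test can give past the threshold, so the adjusted values do not show that these ratios were unchanged.

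The actins were not called. *Actc1*, the cardiac alpha-actin, stood at 10527, 10499, 9324 and 11257 CPM in *Nrg1GOF* and 10149.6, 10268, 10413 and 10740.5 CPM in WT (log2 fold change 0.00, 95% interval -0.14 to 0.14). *Acta1*, the skeletal alpha-actin that fetal heart also expresses, stood at 108, 118, 96.4 and 122 CPM against 119, 116, 95.6 and 88.7 CPM (0.08, 95% interval -0.16 to 0.32). Both groups overlapped, and the *Acta1* to *Actc1* ratio (0.0103 to 0.0113 in *Nrg1GOF*, 0.00826 to 0.0117 in WT) gave an exact p of 0.514.

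*Tpm1*, the main tropomyosin of heart, held 2603, 2685, 2252 and 3037 CPM in *Nrg1GOF* and 2757, 2544, 2226 and 2301 CPM in WT. *Tpm2* held 128, 161, 217 and 161 CPM and 94.2, 89.7, 165 and 167 CPM. WT libraries 3 and 4 were high for *Tpm2* and WT libraries 1 and 2 low, and neither gene was called (adjusted p = 0.472 and 0.272). Their ratio had an exact p of 0.429. Against WT libraries 1 and 2 alone *Tpm2* was 0.86 higher (adjusted p = 0.0111), and against WT libraries 3 and 4 alone the ratio of *Tpm2* to *Tpm1* was 0.24 lower on the log2 scale, without a test.

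The proteins that set thin filament length divided. *Lmod3*, a leiomodin that nucleates actin filaments (ENSMUSG00000044086, chr6:97238534-97252759), stood at 49.1, 41.4, 40.0 and 51.5 CPM in *Nrg1GOF* and 68.1, 59.6, 59.0 and 61.6 CPM in WT. It was lower in all 4 *Nrg1GOF* libraries (log2 fold change -0.46, SE 0.09, adjusted p = 0.00413). *Tmod1*, tropomodulin-1, which caps pointed ends, fell by 0.39 (SE 0.05, adjusted p = 0.000702), with 348 ± 19.4 against 456 ± 12.8 CPM. A share of 32.6% of the exonic bases of *Tmod1* overlap *Tstd2* on the other strand. Whether reads of the 2 genes were kept apart there is not known, because how the counting used strand is not given. *Lmod2* (-0.10, adjusted p = 0.313) and *Neb*, nebulin, at 1.56 to 6.22 CPM (0.56, adjusted p = 0.319), were not called. Against WT libraries 3 and 4 alone *Neb* was 1.43 higher (adjusted p = 0.00847), and against WT libraries 1 and 2 alone 0.015 higher (adjusted p = 0.984).

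In the group of titin, thick filament and M-band genes, 3 of 7 fell, none rose, and 4 were not called by edgeR at an adjusted p under 0.05 (42.9% called, against 28.7% of all genes). *Mybpc3*, the cardiac myosin-binding protein C (ENSMUSG00000002100, chr2:91118144-91136516), stood at 2276, 2325, 2259 and 2570.05 CPM in *Nrg1GOF* and 3009, 2966, 3269 and 3165 CPM in WT. The groups did not overlap, and the log2 fold change was -0.40 (SE 0.06, adjusted p = 0.00117). *Myom1*, myomesin, which links thick filaments at the M-band (ENSMUSG00000024049, chr17:71002633-71126856), held 924, 865, 895 and 959 CPM against 1082, 1084, 1131 and 1072 CPM. It too fell without overlap, by 0.26 (SE 0.05, adjusted p = 0.00442), and it lost its call with WT summed by pair (adjusted p = 0.0588).

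*Myh7b*, a slow-type myosin heavy chain gene (ENSMUSG00000074652, chr2:155611212-155634307), was called with a large but poorly determined change. It stood at 48.1, 68.1, 125 and 70.5 CPM in *Nrg1GOF* and 117, 115, 319.97 and 319.85 CPM in WT. The 2 WT pairs differed, and *Nrg1GOF* library 3 lay above WT libraries 1 and 2. The log2 fold change was -1.48 (95% interval -2.39 to -0.57, adjusted p = 0.022), and it ranged from -2.02 to -0.57 over 18 alternatives. The call was lost in 7 of them, including the comparison with WT libraries 1 and 2 alone and the fits without *Nrg1GOF* library 1, 2 or 4 or WT library 3 or 4, with an adjusted p of up to 0.216.

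Titin was not called. *Ttn* (ENSMUSG00000051747, chr2:76703980-76982547) held 2826, 1463, 1710.2 and 1539 CPM in *Nrg1GOF* and 2517, 5295, 1737 and 1730.01 CPM in WT. WT library 2 was highest, and the groups overlapped, since *Nrg1GOF* library 1 lay above 3 of the 4 WT libraries (log2 fold change -0.58, 95% interval -1.39 to 0.23, adjusted p = 0.269). Against WT libraries 1 and 2 alone it was 1.05 lower (adjusted p = 0.045), and against WT libraries 3 and 4 alone 0.13 higher (adjusted p = 0.73). The transcript of *Ttn* is very long (principal transcript of 100404 bases), and the median log2 deviation from the gene mean of 322 tested genes with transcripts of at least 10 kb was 0.129 and 0.247 in WT libraries 1 and 2, -0.279 and -0.3 in WT libraries 3 and 4, and 0.225, 0.00903, 0.0191 and -0.0484 in *Nrg1GOF* libraries 1 to 4. The part of this difference between libraries in the values of *Ttn*, *Neb* and other long genes was not tested. The remaining members *Mylk3*, *Myom2* and *Obsl1* had log2 fold changes of -0.01, -0.10 and -0.15 (adjusted p = 0.942, 0.336 and 0.202).

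**Figure D3:**
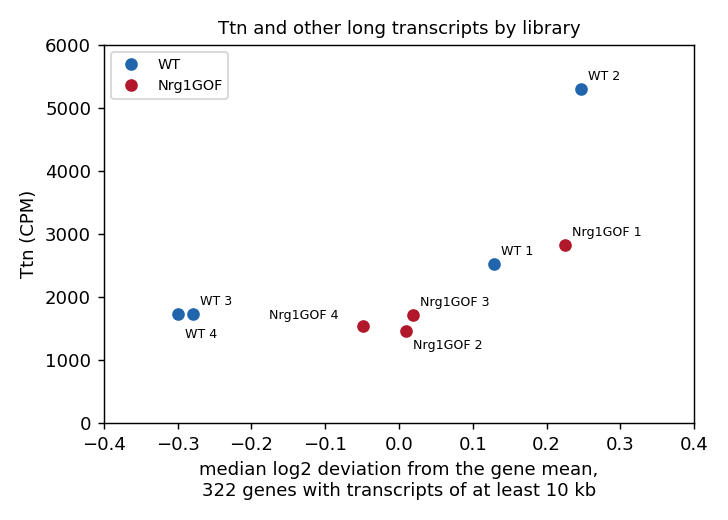
Level of *Ttn* in CPM (linear axis from 0) against the median log2 deviation of 322 genes with long transcripts, 1 point per library, WT blue and *Nrg1GOF* red. WT library 2 and *Nrg1GOF* library 1, with *Ttn* at 5295 and 2826 CPM, have the highest deviations, and WT libraries 3 and 4 have the lowest.

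Of 15 Z-disc members, *Myoz3* and *Myot* had at most 1 and 6 counts per library and were not tested. Of the remaining 13, 2 rose, 3 fell and 8 were not called by edgeR at an adjusted p under 0.05 (38.5% called, where 15.9% of all genes rose and 12.8% fell), with a median log2 fold change of 0.13, against -0.28 for the thin filament and -0.26 for the titin and thick filament group. The difference between these groups of genes was not tested. Without *Nrg1GOF* library 3, the Z-disc members *Tcap*, *Csrp3*, *Myoz2* and *Pdlim5* were also called higher, and *Synpo2l* was no longer called.

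*Pdlim3*, a PDZ-LIM protein that binds alpha-actinin (ENSMUSG00000031636, chr8:45885461-45919548), had the largest increase of the Z-disc genes. It held 168, 171, 176 and 151 CPM in *Nrg1GOF* and 85.1, 89.0, 63.2 and 69.1 CPM in WT. All 4 *Nrg1GOF* libraries were well above WT (167 ± 10.9 against 76.6 ± 12.4 CPM), and the log2 fold change was 1.12 (SE 0.11, adjusted p = 9.14e-05). *Pdlim7*, also known as enigma (ENSMUSG00000021493, chr13:55495795-55513676), stood at 84.2, 107, 119 and 110.1 CPM against 60.1, 60.1, 63.9 and 69.4 CPM. It rose by 0.73 (SE 0.10, adjusted p = 0.000658) without overlap. *Pdlim5*, the third member of this family in the list, was higher in all 4 *Nrg1GOF* libraries (512 ± 33.3 against 457 ± 2.88 CPM) but missed the threshold (log2 fold change 0.16, adjusted p = 0.0539).

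*Ldb3* (cypher), another PDZ-LIM protein of the Z-disc (ENSMUSG00000021798, chr14:34526603-34588682), went the other way. It stood at 696, 691, 715 and 701 CPM in *Nrg1GOF* and 950.4, 986, 1035 and 1022 CPM in WT, a narrow spread in each group. The log2 fold change was -0.51 (SE 0.05, adjusted p = 8.88e-05). *Actn2*, the sarcomeric alpha-actinin (ENSMUSG00000052374, chr13:12269426-12340760), held 1594, 1573, 1539 and 1741 CPM against 2087, 1946, 2211 and 2198 CPM. It fell without overlap by 0.39 (SE 0.06, adjusted p = 0.00148). *Synpo2l* fell by 0.15 (adjusted p = 0.0463), a call lost in 14 of 18 alternatives, including the fit without any 1 of the 8 libraries, with an adjusted p of up to 0.299.

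The other Z-disc members were not called. *Myoz1*, a calcineurin-binding calsarcin, stood at 9.11 ± 0.95 CPM in *Nrg1GOF* and 7.22 ± 0.73 CPM in WT without overlap (log2 fold change 0.33, adjusted p = 0.0632). *Csrp3*, the muscle LIM protein, and *Tcap*, the titin cap, had log2 fold changes of 0.24 and 0.17 (adjusted p = 0.0892 and 0.142). *Myoz2*, *Synpo2*, *Nebl* and *Flnc* lay between -0.17 and 0.13, and *Flnc* was 0.34 lower against WT libraries 1 and 2 alone (adjusted p = 0.0218). With scaling by library totals alone, *Csrp3*, *Myoz1* and *Pdlim5* were called higher. *Pdlim5* was also called higher by DESeq2 and by limma-voom.

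Of 8 genes for attachment and intermediate filaments, 2 rose and 3 fell by edgeR at an adjusted p under 0.05 (62.5% called, where 15.9% of all genes rose and 12.8% fell). The Xin-repeat genes *Xirp1* and *Xirp2*, whose proteins bind actin at the intercalated disc, moved in opposite directions. *Xirp2* (ENSMUSG00000027022, chr2:67446002-67526614) held 26.6, 21.8, 16.04 and 23.9 CPM in *Nrg1GOF* and 8.22, 7.31, 5.62 and 7.74 CPM in WT. All 4 *Nrg1GOF* libraries exceeded WT, and its increase of 1.61 on the log2 scale (SE 0.17, adjusted p = 0.000138) was the largest among the members. *Xirp1* (ENSMUSG00000079243, chr9:120013755-120023598) held 282, 262, 262 and 274 CPM against 369, 359, 348 and 336 CPM. It fell without overlap by 0.39 (SE 0.05, adjusted p = 0.000522), and remained the more abundant of the pair, at 46.3 ± 1.64 CPM per kb in *Nrg1GOF* against 1.85 ± 0.38 CPM per kb for *Xirp2*.

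*Fhl2*, a LIM-only protein that binds titin (ENSMUSG00000008136, chr1:43123074-43196984), held 203, 212, 189 and 216 CPM in *Nrg1GOF* and 288, 301, 329 and 362 CPM in WT. It fell without overlap by 0.64 (SE 0.08, adjusted p = 0.000312). *Nrap*, an anchoring protein of developing myofibrils (ENSMUSG00000049134, chr19:56320035-56390037), held 299.6, 278, 250.2 and 309 CPM against 389, 375, 363 and 374 CPM. The groups were apart, and *Nrap* fell by 0.40 (SE 0.07, adjusted p = 0.00206).

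*Fhl1*, the related LIM-only protein, rose slightly (213 ± 7.04 against 188 ± 10.2 CPM, log2 fold change 0.18, adjusted p = 0.0349), a call lost in 10 of 18 alternatives, including the fits without *Nrg1GOF* library 2, 3 or 4 or WT library 1, 3 or 4, with an adjusted p of up to 0.249. *Des*, desmin, which forms the intermediate filaments of muscle, was not called (0.07, 95% interval -0.13 to 0.26), nor were *Cmya5* and *Smpx* (0.13 and -0.02). The antisense gene *A630019I02Rik* covers 20.7% of the exonic bases of *Cmya5*.

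Of 8 genes for assembly, chaperoning and turnover, 1 rose, 3 fell and 4 were not called by edgeR at an adjusted p under 0.05 (50.0% called, where 15.9% of all genes rose and 12.8% fell). The 3 muscle RING-finger ubiquitin ligases did not move together. *Trim63* (MuRF1, ENSMUSG00000028834, chr4:134315120-134329629) held 87.5, 94.4, 81.1 and 101 CPM in *Nrg1GOF* and 182, 171, 169.9 and 170.2 CPM in WT. Its 90.98 ± 8.54 CPM in *Nrg1GOF* compared with 173 ± 5.97 CPM in WT (log2 fold change -0.93, SE 0.07, adjusted p = 2.63e-05). *Trim55* (MuRF2, ENSMUSG00000060913, chr3:19644474-19692421) held 309.96, 293, 278 and 306 CPM against 439.9, 442, 454 and 429 CPM. It fell by 0.57 (SE 0.05, adjusted p = 6.79e-05), again with the groups apart.

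*Trim54* (MuRF3, ENSMUSG00000062077, chr5:31116712-31137630) was the low-abundance member of the family and rose. It held 8.80, 7.81, 7.44 and 9.88 CPM in *Nrg1GOF* and 3.71, 2.78, 3.60 and 3.36 CPM in WT, so that every *Nrg1GOF* library exceeded WT (log2 fold change 1.32, SE 0.14, adjusted p = 0.000169). The antisense gene *Gm15469* covers 26.6% of its exonic bases, and whether the counting kept reads of the 2 apart there is not known. Per kilobase, the level of *Trim54* in *Nrg1GOF* (5.92 ± 0.76 CPM per kb) stayed below that of *Trim63* (48.2 ± 4.53 CPM per kb) and *Trim55* (114 ± 5.55 CPM per kb).

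*Unc45b*, the chaperone that folds muscle myosin (ENSMUSG00000018845, chr11:82910550-82943403), held 218, 214, 205 and 235 CPM in *Nrg1GOF* and 348, 331, 392 and 389.8 CPM in WT. It fell in all 4 libraries, by 0.74 (SE 0.07, adjusted p = 8.66e-05). The co-chaperone *Bag3*, the small heat shock proteins *Hspb7* and *Cryab*, and the methyltransferase *Smyd1* had log2 fold changes of 0.04, -0.14, 0.03 and 0.08, none of them called. Of *Cryab*, 17% of the exonic bases overlap *Hspb2* on the other strand.

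**Figure D4:**
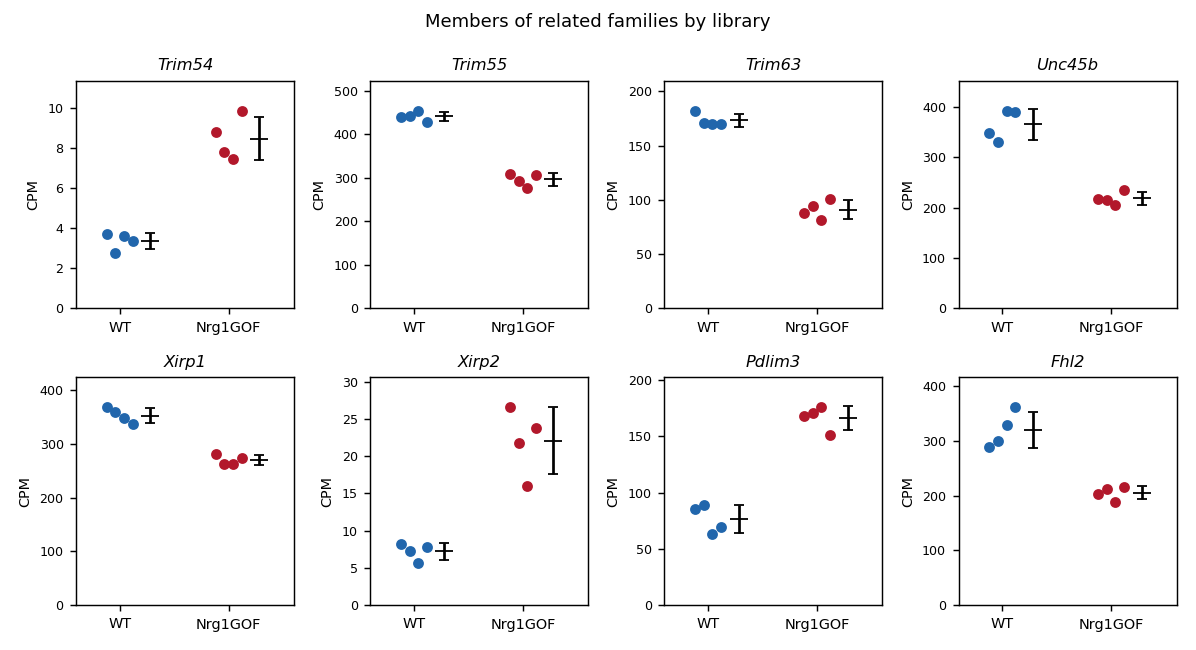
Level in CPM (linear axes from 0) of the 3 *Trim* genes, *Unc45b*, both Xin-repeat genes, *Pdlim3* and *Fhl2*, 1 point per library with mean ± SD of 4 (WT blue, *Nrg1GOF* red). The genotypes are separated in all 8 panels, and within the *Trim* and Xin-repeat families the low genes *Trim54* and *Xirp2* rose while *Trim55*, *Trim63* and *Xirp1* fell.

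Of the 25 called members, 18 stayed called in each of 18 alternatives at an adjusted p under 0.05, and none of the 25 changed sign in any of them. The remaining 7 were *Synpo2l*, *Fhl1*, *Tnnc1*, *Myh7b*, *Tnnt2*, *Tnni3* and *Myom1*.

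**Figure D5:**
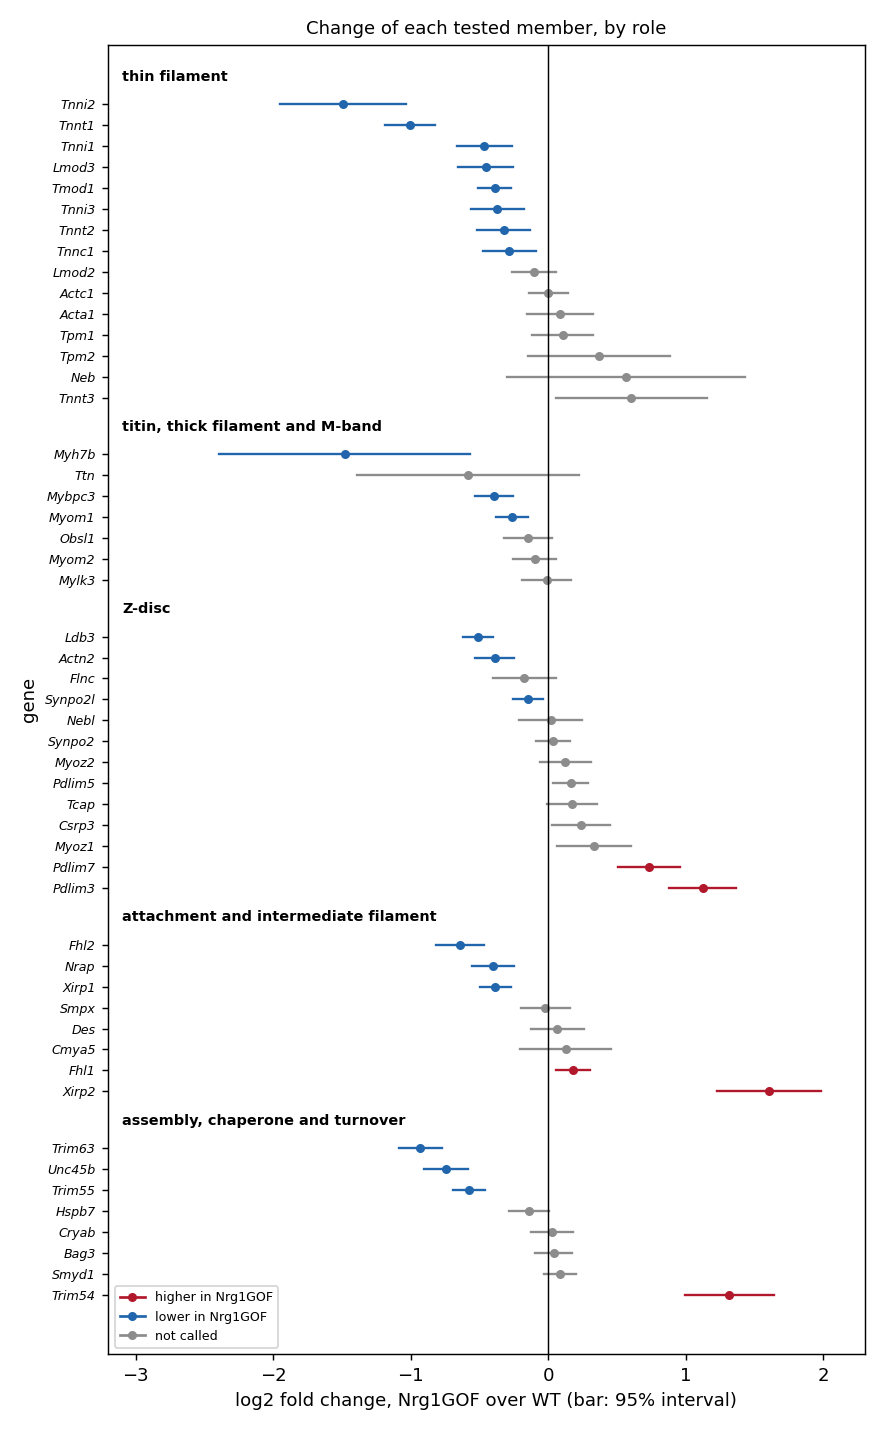
The log2 fold change of *Nrg1GOF* over WT for the 51 tested members by role, with 95% intervals as bars. Blue marks the 20 that fell, red the 5 that rose and grey the 26 that were not called, and the Z-disc, attachment and assembly groups hold all of the red points.

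Genes of the same or related structures outside the list moved in both directions. Of 67 such genes 62 were tested, and 23 rose and 13 fell by edgeR at an adjusted p under 0.05 (58.1% called, where 15.9% of all genes rose and 12.8% fell), with a median log2 fold change of 0.13. Of the 13 tested Z-disc genes among them, 8 rose and 2 fell (median 0.35), of 13 other thin filament genes 6 rose and 2 fell, and of 13 other thick filament and M-band genes 4 rose and 3 fell. The risers included the cytoplasmic actins *Actb* and *Actg1*, and the non-muscle forms *Myh10*, *Actn1* and *Flna*, which cells other than cardiomyocytes also express. Their rise went with that of the fibroblast markers given above, whose part in it was not tested. Other risers included *Ankrd1* (1.24, 1455 against 617 CPM, adjusted p = 9.8e-06), *Csrp1* (0.78, 458 against 266 CPM) and *Ankrd23* (0.72, 27.4 against 16.5 CPM). Of the smooth muscle actins, *Acta2*, which the fetal heart also expresses, fell (666 against 1084 CPM, log2 fold change -0.70, adjusted p = 0.000111), and *Actg2*, at 2.37 against 1.42 CPM, rose (0.76, adjusted p = 0.0396). The highest were *Mybphl* (2.09, 6.87 against 1.66 CPM, adjusted p = 0.00799), an atrial myosin-binding protein, *Actn3* (1.31, 1.37 against 0.55 CPM, adjusted p = 0.00589), the fast skeletal alpha-actinin, and *Myl7* (1.24, 310.1 against 132 CPM, adjusted p = 0.0032), the atrial light chain. The WT pairs differed for *Mybphl* (2.64 and 2.40 CPM in libraries 1 and 2, 0.69 and 0.90 CPM in libraries 3 and 4). They also differed for *Myl7* (176 and 156 CPM, 88.9 and 106 CPM). *Nrg1GOF* library 4 was the lowest of its group for both, at 3.13 and 212 CPM. The lowest were *Ky* (-1.95, 6.56 against 25.0 CPM, adjusted p = 7.92e-07), *Mybpc1* (-1.36, 1.93 against 4.75 CPM, adjusted p = 0.0327), slow skeletal myosin-binding protein C, whose groups overlapped, and the protease *Capn3* (-0.81, 4.17 against 7.31 CPM, adjusted p = 0.00128).

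Skeletal muscle markers were low in both groups. Of 16, 7 could be tested, of which 4 rose (*Myh1*, *Myh8*, *Actn3* and *Chrng*), where 15.9% of all genes rose, and 3 were not called (*Myog* 0.01, *Mylpf* -0.08 and *Cacna1s* -0.15 on the log2 scale). The 16 markers had a summed level of 17.5 to 22.1 CPM in *Nrg1GOF* and 9.06 to 12.4 CPM in WT.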

How the data were processed

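Poly(A) RNA of E15.5 mouse ventricles was sequenced as single reads of 60 bases from directional libraries made from 100 ng of RNA, with base calls converted by CASAVA 1.8. Groups and replicate numbers were taken from sample titles and genotypes, 4 libraries each. Nothing in the labels says whether a replicate number marks a shared litter, so p-values measure the spread between these samples. The deposited values are expected counts estimated by RSEM for each gene, neither scaled for depth nor for length. Reads that fit several genes are shared between them, and 8.42% to 13.2% of values in a library were not whole numbers. The submitters' processing notes name cutadapt, RSEM 1.3.1 and GRCm38, and the table's name gives Ensembl release 91. The aligner and strand setting are not given in the sources used here.

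Expected counts were rounded, filtered with filterByExpr, scaled by trimmed mean of M-values and fitted with edgeR 4.0.16 (limma 3.58.1, DESeq2 1.42.0 and R 4.3.3 were used for alternatives) by the quasi-likelihood F test, with genotype as sole term and Benjamini-Hochberg adjustment over 15580 genes. A gene with an adjusted p under 0.05 was called. SE is the absolute log2 fold change over the square root of F. Tests were two-sided, and the fitting script was tested on simulated data. Ratios used counts with 0.5 added. Coordinates and principal transcript lengths came from GENCODE M21 on GRCm38, a later annotation than that used for counting. Promoters came from RefSeq on GRCm38.p6.

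Members, lists and role groups were chosen with earlier results of these data known. Values per library are given for called members with a mean log2 CPM of 1 or more and the 4 largest absolute log2 fold changes in each role, and for the 10 genes of the ratios. Of the list of 77 other genes (67 of sarcomere and related structures and 10 transcription factors), the 3 highest and 3 lowest called genes are named. Any gene named outside this rule was picked with its values known. The floor of 3 counts covers counting error only, and 95% intervals come from the fit over libraries. Alternatives covered scaling, filter, tool, rounding, replicate number, left-out libraries, WT pairs and threshold. A description of genes with transcripts of at least 10 kb was added after seeing the data.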

Additional observations from a re-analysis of the deposited data

Results flagged for a closer look

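In the WT libraries the level of *Trim63* was 182.2 CPM in WT library 1, apart from the other 3 at 169.9 to 170.6 CPM. The gap to its nearest neighbour was 0.946 of the range of the group, past Dixon's 95% critical value. It was the single such value among 114 groups of 4 values examined, where chance at 1 in 20 gives 5.7.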

How the results depend on the processing

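Of 1212 recomputed values, 1099 kept direction and side of the threshold or stayed within 1.5 times. These include the 6 ratios with the replicate block, counted as kept without a check, since a mean of paired differences equals the difference of means. The members called numbered 20 to 27 when 1 library was left out (4 to 8 higher, 16 to 19 lower). In the same fits 3239 to 4261 of all tested genes were called (1869 to 2426 higher, 1370 to 1868 lower). The members called higher numbered 8 without *Nrg1GOF* library 3. Scaling by library totals alone also gave 8 higher members, and moved the share of all calls that were higher from 55.4% to 65.4% and the median log2 fold change of all genes from -0.01 to 0.03. The list of 77 other genes, which holds 67 genes of sarcomere and related structures and 10 transcription factors, had 23 called higher and 17 lower. Its genes called lower numbered 11 to 17 with 1 library left out, the 11 being without *Nrg1GOF* library 2. With WT libraries summed by pair, 2464 genes were called (1548 higher, 916 lower), and of the 77 other genes 26 were called, 8 of them lower. Against WT libraries 1 and 2 alone 1308 genes fell. At an adjusted p under 0.01, 2535 genes were called (1503 higher, 1032 lower), 19 members (4 higher, 15 lower) and 10 lower genes among the 77. A stricter threshold calls fewer genes by construction, and the cause of the other shifts was not tested.

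The sign changed only in members and ratios that were not called. *Mylk3* was at 0.0319 and *Smpx* at 0.0193 with library totals alone. *Actc1* was at -0.0015 without a filter, -0.00371 with DESeq2, -0.00167 with the replicate block and -0.0171 against WT libraries 3 and 4 alone. Against WT libraries 1 and 2 alone *Acta1* was at -0.0831, *Tpm1* at -0.00576, *Synpo2* at -0.00384, *Nebl* at -0.127 and the *Acta1* to *Actc1* ratio at -0.107. Against WT libraries 3 and 4 alone *Ttn* was at 0.128, *Mylk3* at 0.112, *Flnc* at 0.0195 and the *Tpm2* to *Tpm1* ratio at -0.236. With 1 library left out, the ranges were -0.029 to 0.0561 for *Actc1*, -0.0392 to 0.231 for *Cmya5*, -0.0263 to 0.0702 for *Cryab*, -0.0194 to 0.123 for *Des*, -0.0621 to 0.0449 for *Mylk3*, -0.0688 to 0.0831 for *Nebl* and -0.0636 to 0.0626 for *Smpx*.

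Same-numbered libraries of the genotypes deviated together only weakly (correlations 0.129, 0.0492, 0.199 and 0.0668), and 4 of 8 libraries correlated best with their own number, so the numbers were not taken as pairs. With the replicate block 24 members were called (5 higher, 19 lower) and 4524 genes in all. *Synpo2l* and *Fhl1* lost their calls under it and *Tpm2* gained one. Of the 26 members not called, 10 gained a call in at least 1 alternative. The low depth of *Nrg1GOF* library 4 limits genes such as *Tnnt3* and *Tnni2*, with as few as 11 and 23 counts.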

Other observations

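Of 10 transcription factors of muscle genes, 9 were tested, 4 fell and none rose by edgeR at an adjusted p under 0.05 (44.4% called, against 28.7% of all tested genes). *Myocd*, the coactivator of serum response factor, stood at 65.8 CPM in *Nrg1GOF* and 93.0 CPM in WT (log2 fold change -0.50, adjusted p = 0.000833). *Mef2d* and *Mef2a* fell by 0.31 and 0.29 (adjusted p = 0.00833 and 0.0126), and *Srf* by 0.22 (adjusted p = 0.0306). *Mef2c*, *Gata4*, *Tead1*, *Mrtfa* and *Mrtfb* had log2 fold changes between -0.08 and 0.03 and were not called.

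Of 10 other attachment genes, 4 rose and 2 fell (60.0% called, against 28.7% of all tested genes): *Cavin4* (0.88), *Synm* (0.72), *Ilk* (0.23) and *Tln1* (0.23) were higher, and *Tln2* (-0.36) and *Vcl* (-0.29) lower. Of 13 other assembly and turnover genes 1 rose, 4 fell (*Ky*, *Capn3*, *Speg* and *Alpk3*) and 8 were not called (38.5% called). *Fbxo32*, the ubiquitin ligase atrogin-1, rose (71.3 against 51.7 CPM, log2 fold change 0.47, adjusted p = 0.000812).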
